A study of Homo sapiens with 6 samples.

Results

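Retinoid binding and retinaldehyde metabolism was examined through 9 genes, RBP2, RBP4, CRABP1, CRABP2, ALDH1A1, ALDH1A2, ALDH1A3, DHRS3 and STRA6, grouped by their place in one pathway. Their members on the array were the probe sets annotated to each gene alone, 13 probe sets for 8 of the 9 genes, out of 54613 probe sets and 19775 genes in all. CRABP1 had no probe set annotated to it alone and has no value here. They were selected on the difference between MPA and control signals as well, since results of that comparison, among them the decrease of RBP2, were known when the genes were put together. The values of the members are therefore a description of these arrays and not a test of the pathway.

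Expression was measured in IKPRAB-36, an Ishikawa endometrial cancer cell line stably transfected with both progesterone receptor isoforms, PRA and PRB. The MPA cells were cultured for 48 h with 1 nM medroxyprogesterone acetate (MPA), a synthetic progestin, and the control cells for 48 h without it, with 3 arrays per group. Both groups grew in medium with charcoal-stripped serum, hygromycin and neomycin, and both carry the transfected receptors, so that a single engineered line stands for the progestin response. The study's methods give the n of 3 at the culture step, but neither they nor the labels state whether the 3 cultures of a group were grown on separate occasions, and p-values measure only the spread between these arrays. Values are RMA signals on the log2 scale, where 1 unit is a doubling. Signals of different probe sets cannot be set against each other, since probes differ in how strongly they bind.

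Vitamin A reaches cells as retinol bound to the carrier protein RBP4 and can enter them through the membrane receptor STRA6. Inside the cell, retinol is held by cellular retinol binding proteins such as RBP2, is oxidized reversibly to retinaldehyde, and is then oxidized irreversibly to retinoic acid by the ALDH1A enzymes. DHRS3 reduces retinaldehyde back to retinol, and CRABP1 and CRABP2 bind retinoic acid, which acts through the nuclear receptors RAR and RXR. Retinoic acid is known as a regulator of epithelial differentiation, and RBP2 is best known from the absorptive cells of the small intestine.

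Median signals of the 6 arrays lay between 5.16 and 5.28, and arrays of one group correlated at 0.987 to 0.997. On array MPA 3, the 24 poly-A spike-in controls were low and averaged 6.60, while the remaining 5 arrays averaged 8.09 to 8.90. It was also the highest of the MPA arrays in 9 of the 13 member probe sets and in 53.5% of all probe sets, and its part in the member values was not tested beyond leaving it out. Of 6 epithelial markers, 5 lay above the array median on every array, among them KRT18, CDH1 and EPCAM, and CLDN4 lay on either side of it. None of the 6 was called by limma. CDH1, which encodes E-cadherin, had log2 signals of 7.65, 7.23 and 7.74 on the MPA arrays, against 8.43, 7.93 and 8.55 on the control arrays (log2 fold change -0.76, adjusted p = 0.128 from limma). EPCAM, an epithelial adhesion gene, differed by -0.54 on the log2 scale (adjusted p = 0.0586). The arrays of the groups did not overlap for either gene in its brightest probe set, and SAM called both lower. A second CDH1 probe set, under the array median on every array, had a log2 fold change of -0.12 with overlapping arrays. KRT8, KRT18 and KRT19 went the other way, with 0.22, 0.02 and 0.27, and CLDN4 had -0.16. The KRT8 arrays did not overlap, by 0.01, with MPA higher, and SAM called none of the keratins or CLDN4. The part of CDH1 and EPCAM in the retinoid values was not tested. The uterine epithelial factor genes PAX8 and EMX2 also lay above the median on every array. PAX8 was called lower by SAM but not by limma (log2 fold change -0.44, adjusted p = 0.0762). FOXA2 and SOX17 lay under the median. In brightest probe sets, DCN and THY1 were the only 2 of 6 stromal markers above it, at no more than 6.11. The dimmer DCN probe sets lay under it on most or all arrays. Of 6 leukocyte and endothelial markers, PECAM1 and CD3E lay above the median on every array in their brightest probe sets, at 6.36 or less. The dimmer PECAM1 probe sets lay under it on every array, as did the other 4 markers.

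Among the retinoid genes, the binding protein RBP2 and the retinaldehyde dehydrogenase ALDH1A1 were lower in cells cultured with MPA, and no member was called higher. RBP2 was 3.89-fold lower and ALDH1A1 was 1.73-fold lower. The other 6 measured genes did not pass the call rule, an adjusted p under 0.05 in limma over all probe sets together with a log2 change of at least 0.32 in either direction. Thus 2 of 8 genes were called in their brightest probe set, and 2.90% of all 19775 genes were called in either direction (1.74% higher, 1.16% lower). SAM, a test based on relabeling the arrays, called the same 2 members lower, with 5.23% of all genes called. Over the probe sets, 2 of 13 members were called, against a background of 2.03%. The comparison that gave these calls was in view when the genes were chosen, and nothing is read from the count.

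The median log2 fold change of the 8 measured genes was -0.33, beside 0.02 over all genes, and 6 of the 8 values were negative. The arrays of the groups did not overlap for RBP2, ALDH1A1 and DHRS3, each lower with MPA, which held for 7.98% of all genes in that direction.

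**Figure D1:**
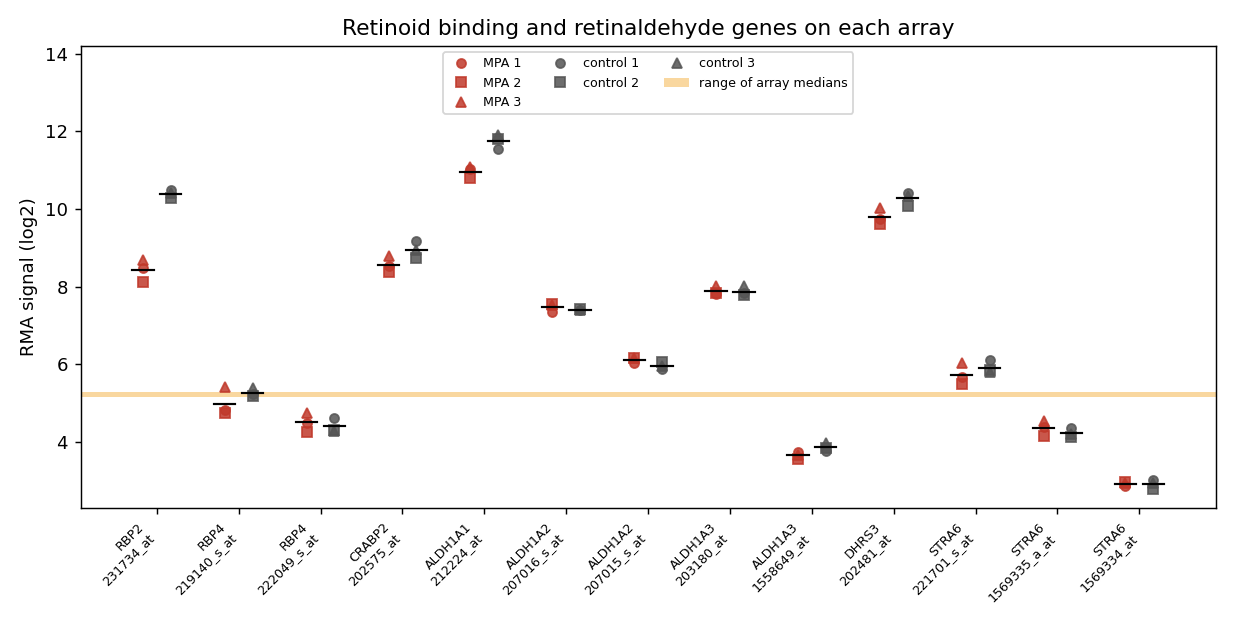
RMA signal on the log2 scale (vertical axis) of the 13 member probe sets (horizontal axis), with MPA arrays in red on the left of each pair and control arrays in grey on the right; marker shapes give the replicate number, black lines the group means and the orange band the range of the array medians. RBP2 is the widest apart, with group means of 8.44 with MPA and 10.40 in controls.

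The 250 bases before the annotated start of RBP2 and ALDH1A1 are shown because these are the 2 members called lower. Both are RefSeq sequences of GRCh38.p14 on the minus strand, chr3:139476517-139476766 for RBP2 and chr9:72953054-72953303 for ALDH1A1, printed 5′ to 3′ along the gene. Capitals mark any match to AGGTCA, the core of sites for retinoid and related nuclear receptors, or to TGTTCT, the core bound by progesterone and other steroid receptors, each on both strands, or to the TATA box TATAAA on the printed strand.
RBP2: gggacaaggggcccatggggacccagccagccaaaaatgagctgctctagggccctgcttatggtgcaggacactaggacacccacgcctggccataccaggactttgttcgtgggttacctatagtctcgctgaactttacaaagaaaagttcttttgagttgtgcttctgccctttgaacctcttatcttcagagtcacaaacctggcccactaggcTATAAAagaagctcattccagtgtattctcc
ALDH1A1: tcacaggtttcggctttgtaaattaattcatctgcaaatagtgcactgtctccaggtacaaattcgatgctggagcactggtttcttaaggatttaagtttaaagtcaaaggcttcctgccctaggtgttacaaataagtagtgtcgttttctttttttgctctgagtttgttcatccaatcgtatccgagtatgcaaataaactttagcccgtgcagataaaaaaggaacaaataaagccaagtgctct
The RBP2 window held a TATAAA that begins 31 bases before the start, and the ALDH1A1 window held none of the 3 motifs. Among 35116 such windows, 12.1% held AGGTCA, 12.4% held TGTTCT and 6.80% held TATAAA. The ALDH1A1 window was also poor in G and C, with 38.4% against 50.4% for RBP2 and a median of 58.0% over all windows. Of the other members, AGGTCA was found before 1 annotated start of DHRS3 and 2 of STRA6, and TGTTCT before 1 start each of RBP4, ALDH1A2 and STRA6. TATAAA was found before 2 starts of RBP4, beginning 31 bases before 1 of them and 225 bases before the other. Paired cores were searched as well, AGGTCA repeated after 1, 2 or 5 bases and AGAACA followed after 3 bases by TGTTCT, each a longer site that contains the single cores. They were found before no start of the 9 genes. Over all windows, 0.0171% held the repeat after 1 base, and 0.00285% held each of the others. A match is a run of letters only, and its absence says nothing about binding elsewhere.

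RBP2, a cellular retinol binding protein that also binds retinaldehyde, had log2 signals of 8.49, 8.13 and 8.69 on the MPA arrays, against 10.48, 10.29 and 10.43 on the control arrays. All 3 MPA arrays lay below all control arrays, with a gap of 1.60 between the nearest 2 arrays, and the MPA arrays were spread more widely. The means were 8.44 ± 0.28 with MPA and 10.40 ± 0.10 in controls (SD, n = 3 arrays each), a log2 fold change of -1.96 (standard error 0.15). RBP2 stood at position 8 among 19775 genes ordered from the strongest decrease. Its log2 fold change lay between -2.09 and -1.81 whichever array was left out, and it was called under all 16 alternatives. Without MPA 3, the array that stood apart, the log2 fold change was -2.09.

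RBP4, the carrier of retinol in blood, had 2 probe sets, both close to or under the array medians. In the brighter one, the signals were 4.82, 4.74 and 5.42 on the MPA arrays, against 5.24, 5.18 and 5.40 on the control arrays. MPA 3 was thus the highest of all 6 arrays, while MPA 1 and MPA 2 were the lowest. The log2 fold change was -0.28 (95% interval -0.69 to 0.13), and it was -0.49 without MPA 3, where it was not called either. The dimmer RBP4 probe set, under the array median on every array, had a log2 fold change of 0.09 (95% interval -0.26 to 0.44).

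CRABP2, which carries retinoic acid to its receptors in the nucleus, had signals of 8.52, 8.38 and 8.79 on the MPA arrays, against 9.18, 8.73 and 8.95 on the control arrays. The groups overlapped only where MPA 3 lay above control 2. The means were 8.56 ± 0.21 with MPA and 8.95 ± 0.22 in controls (SD, n = 3 each), a log2 fold change of -0.39 (95% interval -0.74 to -0.04) that was not called under any of 16 alternatives.

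Of the 3 retinaldehyde dehydrogenases, ALDH1A1 was lower with MPA, and ALDH1A2 and ALDH1A3 did not pass the call rule. ALDH1A1 had signals of 11.03, 10.79 and 11.08 on the MPA arrays, against 11.56, 11.79 and 11.91 on the control arrays. The groups were apart by 0.48 between MPA 3 and control 1. The means were 10.96 ± 0.15 with MPA and 11.75 ± 0.18 in controls (SD, n = 3 each), a log2 fold change of -0.79 (standard error 0.13). ALDH1A1 lost its call without MPA 1 (log2 fold change -0.82), MPA 2 (-0.70), control 2 (-0.77) or control 3 (-0.71), and kept it without MPA 3 (-0.85) or control 1 (-0.89). It was also not called with a 2-fold minimum or when the change was tested against the minimum of the call rule instead of against 0 (limma's treat).

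ALDH1A2, best known as the enzyme that makes retinoic acid in the embryo and in stromal cells, had signals of 7.34, 7.56 and 7.52 on the MPA arrays, against 7.41, 7.43 and 7.40 on the control arrays in its brightest probe set. The MPA arrays lay on both sides of the narrow control range, and the log2 fold change was 0.06 (95% interval -0.18 to 0.30). The other ALDH1A2 probe set gave 0.15 (-0.09 to 0.39). ALDH1A3, an enzyme of the same family, had signals of 7.81, 7.83 and 8.02 on the MPA arrays, against 7.83, 7.78 and 8.02 on the control arrays. The 2 groups covered almost the same range, with a log2 fold change of 0.01 (95% interval -0.25 to 0.28). A second ALDH1A3 probe set, at 3.98 or less on every array and so under the array median, had a log2 fold change of -0.20 with arrays that did not overlap by 0.02. The intervals of the brightest ALDH1A2 and ALDH1A3 probe sets and that of ALDH1A1 (-1.09 to -0.49) did not overlap, but the difference between the genes was not tested.

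DHRS3, the reductase that returns retinaldehyde to retinol and is itself known to be induced by retinoic acid, had signals of 9.74, 9.61 and 10.02 on the MPA arrays, against 10.41, 10.09 and 10.33 on the control arrays. All MPA arrays lay below all control arrays, by 0.07 between MPA 3 and control 2. The means were 9.79 ± 0.21 with MPA and 10.28 ± 0.16 in controls (SD, n = 3 each), a log2 fold change of -0.49 (95% interval -0.81 to -0.16). DHRS3 was not called under any of 16 alternatives, and its log2 fold change was -0.60 without MPA 3. STRA6, the receptor for retinol bound to RBP4, had signals of 5.67, 5.51 and 6.04 on the MPA arrays, against 6.11, 5.85 and 5.81 on the control arrays in its brightest probe set. The groups overlapped, MPA 3 lay above 2 of the control arrays, and the log2 fold change was -0.18 (95% interval -0.54 to 0.17). The other 2 STRA6 probe sets lay under the array median on every array, with log2 fold changes of 0.12 and 0.01.

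**Figure D2:**
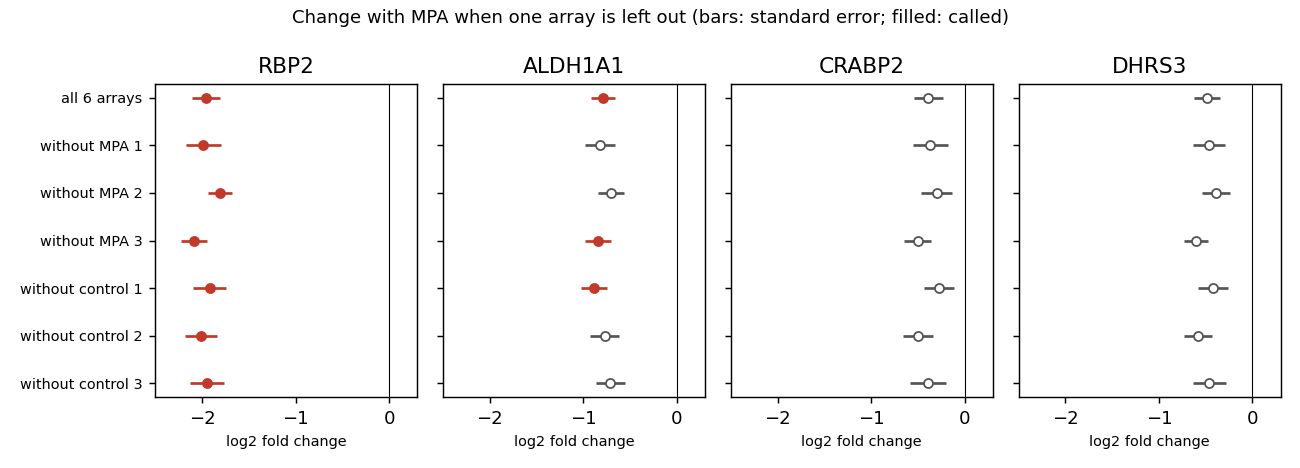
Log2 fold change, MPA minus control (horizontal axis), of RBP2, ALDH1A1, CRABP2 and DHRS3 with all 6 arrays and with each array left out in turn (rows); bars are standard errors and filled red points were called. RBP2 stays between -2.09 and -1.81 and is called in every row, ALDH1A1 is called without MPA 3 or control 1 but not without the other arrays, and CRABP2 and DHRS3 stay negative and are not called.

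Beyond these genes, 60 further genes of the pathway were listed by role, of which 53 had a probe set of their own. The list was written with earlier results of these arrays known. In their brightest probe sets 1 of the 53 rose with MPA, 0 fell and 52 did not pass the test, against 2.90% of all genes called in either direction. The median log2 fold change of the 53 genes was -0.05, beside 0.02 over all genes.

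The gene that rose was AKR1B10, an aldo-keto reductase that converts retinaldehyde to retinol among other aldehydes. Its log2 signals were 6.67, 7.03 and 6.71 on the MPA arrays, against 5.26, 4.86 and 5.17 on the control arrays. All MPA arrays lay above all control arrays. AKR1B10 rose 3.25-fold, a log2 fold change of 1.70 (standard error 0.15, adjusted p = 0.000695 from limma), and had means of 6.80 ± 0.20 with MPA and 5.10 ± 0.21 in controls (SD, n = 3 each). The control mean lay just under the array medians. It was called under all 16 alternatives, and its probe set may also bind transcripts of close relatives. None of the other 14 measured retinol dehydrogenases and retinaldehyde reductases passed the test. Among them RDH10, a main enzyme for the oxidation of retinol, had mean log2 signals of 11.03 ± 0.030 with MPA and 11.09 ± 0.098 in controls (SD, n = 3 each), a log2 fold change of -0.06 (95% interval -0.29 to 0.17, adjusted p = 0.936).

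RETSAT, a saturase that takes retinol out of the pathway to retinoic acid by reducing a double bond, passed the test in its dimmer probe set only. That probe set had log2 signals of 9.23, 8.84 and 9.19 on the MPA arrays, against 8.28, 8.15 and 8.56 on the control arrays. It rose 1.68-fold (log2 fold change 0.75, standard error 0.15, adjusted p = 0.0475 from limma). The brighter RETSAT probe set had a log2 fold change of 0.72 and missed the threshold (adjusted p = 0.0707). The called probe set lost its call without MPA 1 (log2 fold change 0.68), MPA 3 (0.70), control 1 (0.73), control 2 (0.66) or control 3 (0.87). Counting the other alternatives as well, it was called under 7 of 15 and not called under 8. The other 6 measured genes of retinol storage and carotenoid cleavage did not pass the test in any probe set.

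The other retinoid binding and transport proteins had 8 measured genes, of which 0 passed the test in either direction, with a median log2 fold change of -0.06. The 4 measured genes of further retinaldehyde oxidation and of retinoic acid breakdown did not pass it either, with a median of 0.13.

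The 7 listed receptor genes, the RAR and RXR genes and PPARD, were not called in either direction in any of their 23 probe sets. The brightest probe set of RARA, the alpha receptor, had log2 signals of 6.43, 6.51 and 6.58 on the MPA arrays, against 7.29, 6.84 and 7.05 on the control arrays. The groups did not overlap, and the log2 fold change was -0.55 (95% interval -0.85 to -0.25, adjusted p = 0.0992 from limma). RARA was called lower by SAM and without control 2 (log2 fold change -0.66, adjusted p = 0.0457). The other 4 RARA probe sets had log2 fold changes of 0.02, -0.26, -0.17 and 0.32, and the mean of all 5 was -0.13, so that the probe sets of the gene disagreed. The RARA probe set with 0.32 lay under the array median on every array, which limits what it can show. RARB, itself a classical target of retinoic acid, was under the array median on every array in its brightest probe set, with a log2 fold change of 0.03 (95% interval -0.22 to 0.28). The log2 fold changes of RARG, RXRA and RXRB were -0.06, 0.01 and -0.23.

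Genes known to be induced by retinoic acid in other cells did not pass the test either, 0 of 16 measured in each direction, with a median log2 fold change of 0.02. CYP26A1, the enzyme that breaks down retinoic acid and one of its most responsive targets, had mean log2 signals of 5.81 ± 0.17 with MPA and 5.67 ± 0.042 in controls (SD, n = 3 each), a log2 fold change of 0.14 (95% interval -0.13 to 0.41). RARRES2 and PLAAT4 were named here after their values were seen, as the genes of this list with the strongest decrease in brightest probe sets. Their log2 fold changes were -0.56 (95% interval -1.03 to -0.09, adjusted p = 0.353 from limma) and -0.49 (-0.82 to -0.15, adjusted p = 0.222). The PLAAT4 groups did not overlap, with a gap of 0.25 between the nearest arrays, and 3 arrays lay under the array median. The RARRES2 signals were 6.64, 6.75 and 7.43 on the MPA arrays, against 7.65, 7.32 and 7.52 on the control arrays, so that MPA 3 alone overlapped the controls. Without MPA 3, RARRES2 was called lower (log2 fold change -0.80, adjusted p = 0.0257), while with any other array left out it was not.

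**Figure D3:**
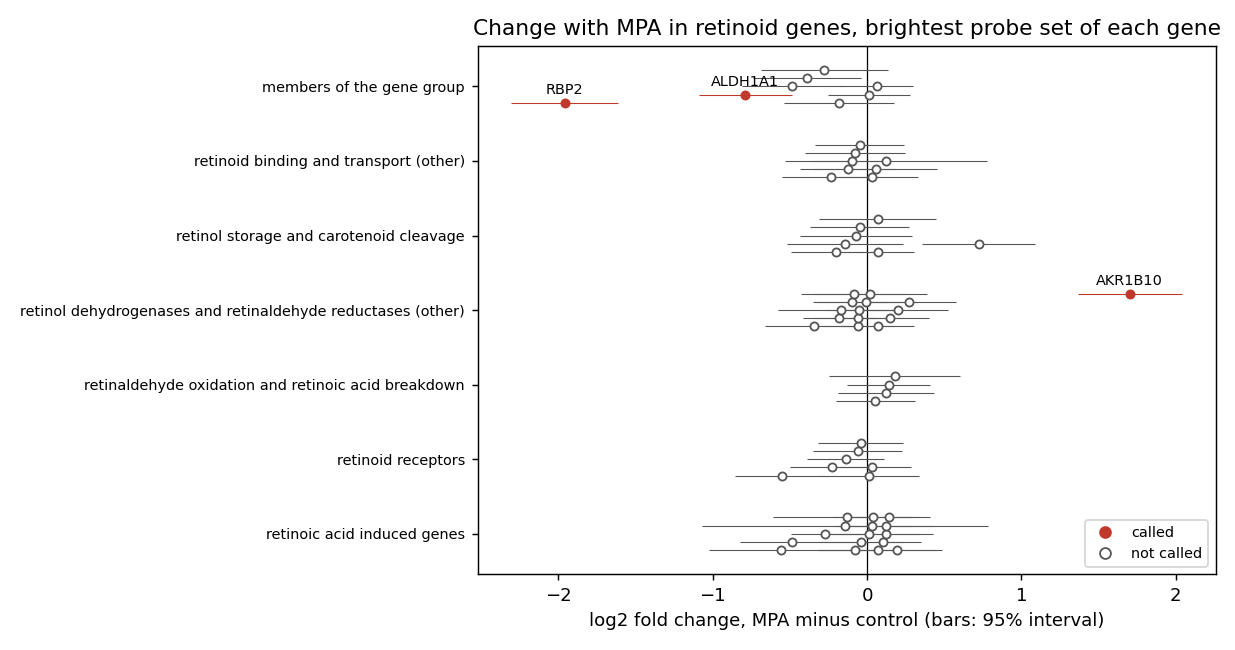
Log2 fold change, MPA minus control (horizontal axis), of the brightest probe set of each measured gene, with 95% intervals as bars, for the 8 measured members and for 6 role lists of the wider pathway (rows; a gene can stand in more than 1 list). RBP2 and ALDH1A1 are the called members and AKR1B10 the called gene of the lists (filled red); the open point at 0.72 is RETSAT.

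The genes with a pattern over the 6 arrays most like that of RBP2 were WWC1, TMEM45B and ALDH3A1, another aldehyde dehydrogenase, with Pearson correlations of 0.9996, 0.999 and 0.999. ALDH3A1 had mean log2 signals of 6.77 with MPA and 8.65 in controls, WWC1 had 8.36 and 9.33, and TMEM45B had 8.40 and 9.26. For ALDH1A1 they were RAB29, ST3GAL5 and CHRNB3, with correlations of 0.997, 0.993 and 0.989 and log2 fold changes of -0.34, -0.36 and -0.31, which did not pass the test. These correlations follow mostly the difference between the groups, and all points share the same 6 arrays.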

How the data were processed

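Affymetrix U133 Plus 2.0 arrays were used, and the deposited values are log2 signals that the authors made by RMA, which subtracts background, brings arrays to a common distribution and combines probes. They were not normalized again, and the version of the RMA software is unknown here. Of 54675 probe sets, 62 Affymetrix controls were left out. Gene names came from the platform table and were updated by Entrez identifier; 41091 probe sets had 1 symbol, 1801 several and 11721 none. The brightest probe set stood for its gene.

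The 2 groups were compared by limma 3.58.1 (lmFit, eBayes, two-sided) under R 4.3.3, with Benjamini-Hochberg adjustment over 54613 probe sets; calls needed an adjusted p under 0.05 and 1.25-fold. SAM, as named in the methods of the study, was an alternative, with delta 0.53 and all 20 relabelings. With 3 arrays per group, exact permutation could not go below p = 0.1, and the number of arrays limits the precision. The limma and SAM steps were also run on simulated data with independent noise in each probe set, which held no shift of a whole array. The members and lists were chosen with earlier results of these data known. Named genes were all members, a fixed set of receptors and enzymes, list genes called in any probe set, and for each called member the 3 genes with the highest correlation. Markers, chromosomal neighbours, PPARD, RARRES2 and PLAAT4 fall outside this rule and were named after their values were seen. Further alternatives were a replicate block, treat, an intensity trend, other fold minimums, a filter on dim probe sets, scaling to 9 housekeeping genes, repeated quantile normalization, leaving out each array, and averaging the probe sets of a gene. Coordinates belong to the RefSeq promoter sequences and not to the probe sets.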

Additional observations from a re-analysis of the deposited data

How the results depend on the processing

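The decrease of RBP2 and the increase of AKR1B10 kept their direction and their call under all 16 alternatives, and ALDH1A1 kept its direction under all 16 and its call under 10. Their direction could change only with the housekeeping scaling, the repeated quantile normalization or an array left out. The remaining alternatives left the estimates of these genes as they were, and dropping the fold minimum could not remove a call. The count of members called lower was 1 in place of 2 with treat and with the 2-fold minimum, in genes and in probe sets, and 1 to 2 with an array left out. In the wider list 2 genes were higher with the replicate block, with SAM, with the intensity trend and with the mean of all probe sets, the added gene being RETSAT. RARA was the 1 gene lower with the replicate block and with SAM, and 0 to 1 genes were lower with an array left out (RARA without control 2, RARRES2 without MPA 3). Of all 54613 probe sets, 663 rose and 444 fell. These counts were 1208 and 825 with the replicate block, 1313 and 868 with SAM, 318 and 137 with treat, 357 and 153 with the 2-fold minimum, and 353 to 725 and 156 to 465 with an array left out. The deviations of arrays with the same number correlated at -0.02, 0.52 and 0.33, and those of arrays with different numbers at -0.48 to 0.35. These values do not settle whether the numbers mark pairs, and the labels state no pairing. The numbers were therefore not taken as pairs, and the block is a check only. The cause of the larger counts was not tested. RBP4, the dimmer STRA6 and ALDH1A3 probe sets, RARB and the controls of AKR1B10 lay near or under the array medians, which limits what their signals can show.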

Other observations

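Protein-coding genes near RBP2 and ALDH1A1 in the gene order of GRCh38.p14 were looked up after these genes were called. For genes near RBP2 on chromosome 3, the log2 fold changes were 0.10 for COPB2, -0.11 for MRPS22 and -0.26 for NMNAT3 (adjusted p of 0.607 to 0.912 from limma). Next to ALDH1A1 on chromosome 9, ANXA1, which encodes the phospholipid-binding protein annexin A1, had mean log2 signals of 11.95 with MPA and 11.18 in controls, a log2 fold change of 0.78 that did not pass the test (standard error 0.28, adjusted p = 0.351). The log2 fold change of ZFAND5 was 0.24 with an adjusted p of 0.501. TMC1 and RORB had means of 3.28 or less in both groups and were not called.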
